A study of Homo sapiens with 21 samples.

Results

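Cells in which the knocked-down EWS/FLI fusion had been replaced by a full-length cDNA (WT-EF) were compared with cells that had kept their own fusion (iLuc), to ask which transcripts re-expression did not return to the control level. The comparison drew on 6 of the 21 RNA-seq libraries of the series, 3 for each group, chosen by the group named in the sample labels. A further 3 libraries, of cells depleted of the fusion (iEF), gave the level without it. All were A673, an established Ewing sarcoma cell line. iLuc cells carried an shRNA against luciferase and an empty vector. iEF cells carried an shRNA directed at the 3′ untranslated region of the EWS/FLI transcript and the empty vector. WT-EF cells carried that same shRNA and wildtype EWS/FLI with an N-terminal FLAG tag, expressed from a retroviral vector rather than from the fusion's own locus. In every group the shRNA virus was added on day 1 and the vector or cDNA virus on day 5, and selection in 2 µg/mL puromycin, joined on day 6 by 400 µg/mL hygromycin, ended on day 16, so iLuc differed from WT-EF in its shRNA as well as in the source of the fusion. Only 1 cell line and 1 hairpin per target were used.

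EWS/FLI joins the low-complexity amino-terminal domain of EWSR1 to the DNA-binding ETS domain of FLI1. It activates genes at microsatellites made of repeated GGAA units, to which ETS proteins do not usually bind, and represses others, among them genes of the extracellular matrix and of mesenchymal cells. Depletion of the fusion in Ewing sarcoma cells is known to raise these mesenchymal genes, and put-back of a cDNA is the usual test of what a form of the fusion can do.

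The 6 libraries held 35.6 to 41.2 M counts each, and 1 CPM (counts per 1 M of library size after TMM scaling) stood for 38.9 to 45.2 counts. Of 8 genes commonly expressed in Ewing sarcoma, 7 were present, and their summed level was 2896 to 3206 CPM in iLuc, 2414 to 2829 CPM in WT-EF and 1424 to 2027 CPM in iEF. CD99, also on that list, was near 0 in all 9 libraries. Whether its reads were lost in counting was not tested, so this value is not read as absence of the transcript. The 7 marker genes of blood, epithelial, endothelial, liver, muscle and pigment cells were below 1 CPM in every one of these groups, with summed levels of at most 1.94 CPM. FLI1 (ENSG00000151702, chromosome 11, 128556430 to 128683162, GRCh37) counts both the fusion's FLI1 part and the cDNA. Its level was 61.3, 60.6 and 89 CPM in iLuc replicates 1 to 3, at 21.9, 25.2 and 26.5 CPM in WT-EF and at 20.8, 20.0 and 21.1 CPM in iEF. The WT-EF libraries lay below all iLuc libraries, with a log2 fold change of -1.51 ± 0.13 (SE) and a Benjamini-Hochberg adjusted p-value of 7.36e-08 from the quasi-likelihood test of edgeR, just above all iEF libraries, from which they differed by 0.24 (adjusted p-value 0.196). A cDNA yields reads over only part of the gene, so these values do not measure the amount of fusion transcript, and protein was not measured in these files. The study itself measured the fusion transcript by qRT-PCR, shown as technical replicates of a representative experiment. There WT-EF differed from iLuc and not from iEF by Tukey's test, and a western blot of the tagged constructs was also given. EWSR1, which the intact allele also transcribes, differed from iLuc by -0.22 (95% interval -0.41 to -0.02, adjusted p-value 0.118).

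Principal components of log2 CPM were computed over the 9 libraries. On the first component, with 74.4% of the variance, iLuc had scores of -87.5, -86.8 and -87.0, WT-EF of -2.96, -19.7 and -10.6, and iEF of 94.4, 96.8 and 103.6. WT-EF thus lay between the other groups, without overlap. The second component, with 11.2% of the variance, held WT-EF apart from both, with scores of 38.8, 31.1 and 44.4. On it iLuc replicate 3 stood furthest from its group, with a score of 1.47, against -33.0 and -35.5 for iLuc replicates 1 and 2. To a lesser degree iEF replicate 2 was apart as well, at -29.9 against -5.91 and -11.5 for iEF replicates 1 and 3. Results that rest on iLuc replicate 3 are given with and without it.

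**Figure D1:**
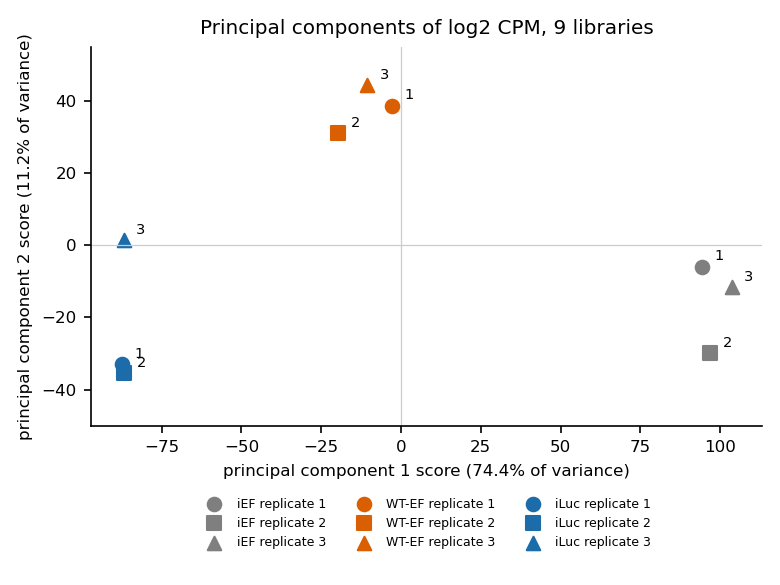
Scores of the 9 libraries on principal components 1 (x axis, 74.4% of the variance) and 2 (y axis, 11.2%), computed from log2 CPM, with 1 point per library, colored by group and shaped by replicate number. WT-EF lies between iLuc and iEF on the x axis and above both on the y axis, where iLuc replicate 3, at 1.47, is apart from iLuc replicates 1 and 2.

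Of 30549 genes tested, 5591 (18.3%) differed between WT-EF and iLuc at an adjusted p-value below 0.05 by edgeR. In WT-EF 2988 genes (9.78%) were higher and 2603 (8.52%) were lower. The median difference was 2.30-fold among the higher genes, of which 898 differed by at least 4-fold, and 1.92-fold among the lower genes, of which 441 did. Among protein-coding genes 2438 were higher and 2106 lower of 16417, and the median log2 difference over all genes was 0.02. Both groups can be set against the same iEF libraries: 8635 genes (28.3%) differed between WT-EF and iEF, and 12560 (41.1%) between iLuc and iEF. These 3 comparisons share libraries, so their counts are not independent. Without iLuc replicate 3 the counts of WT-EF against iLuc were 3327 higher and 3297 lower. When instead 1 of the other 5 libraries was left out, the lower genes numbered 1616 without iLuc replicate 1, 1709 without iLuc replicate 2 and 1624 to 1685 without 1 of the WT-EF replicates. The spread behind these p-values is what remained between replicate libraries after shifts shared by a replicate set were removed. It was estimated over all 7 groups of the series, in 1 cell line. With the 9 libraries of WT-EF, iLuc and iEF alone, 3901 genes differed between WT-EF and iLuc.

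Position between the groups was tested directly, by asking that WT-EF differ from both iLuc and iEF in a stated order. In 324 genes (1.06%) WT-EF lay above iEF and below iLuc, and in 1197 genes (3.92%) it lay below iEF and above iLuc. WT-EF lay above both groups in 130 genes (0.426%) and below both in 68 (0.223%). The 324 became 159 to 167 without 1 of the WT-EF replicates, 210 without iLuc replicate 1 and 204 without the replicate block. The 130 became 85 without WT-EF replicate 3. The 68 became 275 without iLuc replicate 3, 38 without iLuc replicate 1, 40 without iLuc replicate 2 and 15 to 19 without 1 of the WT-EF replicates. Together the last 2 counts made 198 genes outside the range of the other groups, which became 457 without iLuc replicate 3 and 100 to 107 without 1 of the WT-EF replicates. The 1521 genes between the groups became 999 without WT-EF replicate 1. In bulk RNA, an intermediate level in every cell and a mixture of cells at the level of either group cannot be told apart.

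The programs were followed with 26 gene lists, of which 658 of 670 entries were tested, all of them protein-coding genes. The called share of a list is set against that of all tested genes, of which 9.78% were higher and 8.52% lower, or of all protein-coding genes, of which 14.9% were higher and 12.8% lower. Of the 6833 genes lower in iLuc than in iEF, 2490 were higher in WT-EF than in iLuc. Of the 5727 genes higher in iLuc than in iEF, 2006 were lower in WT-EF than in iLuc. These counts, which share the iLuc libraries, are the closer background for lists made mostly of such genes. The lists with the highest median difference, WT-EF minus iLuc, held repressed targets of the fusion, cytokines, matrix genes, proteases and interferon-stimulated genes. The lowest medians were those of the serine synthesis and ATF4 list and of the activated targets. In the first of these groups the iEF level was the higher one in every list, and in the activated targets it was the lower one. The order of the medians depended on the measure. With 0.5 CPM added to WT-EF and iLuc, the cytokine medians by replicate set were 0.97, 0.92 and 1.36, below the 1.52, 1.10 and 1.70 of the matrix list.

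**Figure D2:**
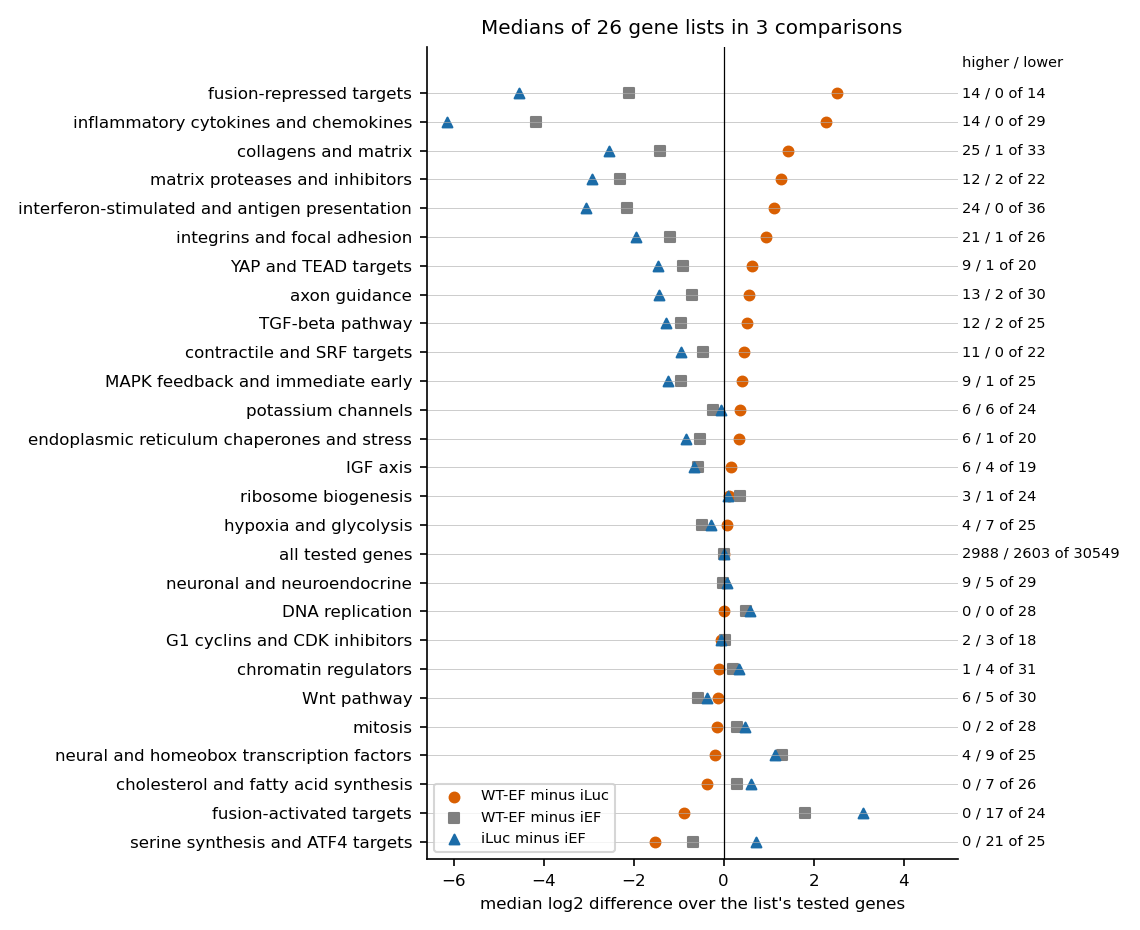
Median log2 difference (x axis) over the tested genes of each of 26 lists and over all 30549 tested genes (rows), for WT-EF minus iLuc (circles), WT-EF minus iEF (squares) and iLuc minus iEF (triangles), with the numbers of genes higher and lower in WT-EF than in iLuc at the right. The 3 comparisons share libraries. Repressed targets have a circle at 2.53 and the serine synthesis and ATF4 list one at -1.52, against 0.02 over all genes.

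Activated targets of the fusion were returned toward the iLuc level but not, for most, to it. All 24 genes of the list were higher in WT-EF than in iEF, and 17 of the 24 were lower in WT-EF than in iLuc, against 8.52% of all genes. None was higher than in iLuc. The median log2 difference was -0.87 from iLuc and 1.82 from iEF, where the full distance between iLuc and iEF had a median of 3.09. The list was drawn from targets known in this cell line, some from earlier results of these libraries, so its direction between iLuc and iEF is no independent evidence. In 14 of the 24 the order iEF, WT-EF, iLuc passed its own test.

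For 6 of these genes the reference genome (GRCh37) holds a run of at least 4 tandem GGAA units between 5000 bases upstream and 1000 bases downstream of the gene start, and 4 stretches are printed to show the element. They were read on the strand on which they spell GGAA, 5′ to 3′, with the runs in capitals and interruptions in lower case. The NR0B1 stretch (chrX:30328875-30328976, minus strand) holds 25 units ending 1368 bases upstream of the gene start, the GSTM4 stretch (chr1:110196858-110196930, plus strand) 18 units, the CAV1 stretch (chr7:116163121-116163204, plus strand) 20 units, and the stretch that LIPI and RBM11 share (chr21:15585613-15585656, minus strand) 11 units.
NR0B1: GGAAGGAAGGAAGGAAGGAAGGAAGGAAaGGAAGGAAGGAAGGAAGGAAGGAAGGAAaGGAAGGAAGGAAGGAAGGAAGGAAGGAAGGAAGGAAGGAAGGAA
GSTM4: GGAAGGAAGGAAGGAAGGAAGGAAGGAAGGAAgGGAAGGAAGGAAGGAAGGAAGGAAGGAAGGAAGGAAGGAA
CAV1: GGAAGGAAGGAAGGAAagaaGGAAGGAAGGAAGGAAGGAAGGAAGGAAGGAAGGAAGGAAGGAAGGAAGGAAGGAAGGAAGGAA
LIPI and RBM11: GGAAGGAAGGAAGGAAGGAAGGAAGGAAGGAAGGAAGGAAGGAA

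Each of the 5 genes beside these stretches was lower in WT-EF than in iLuc. CAV1 has a further stretch of 8 units, not printed. CCK, the remaining gene with such runs, has stretches of 11, 14 and 13 units that are not printed either. It was not called lower. NR0B1, an orphan nuclear receptor needed for growth of Ewing cells, stood at 60.1, 53 and 44.3 CPM in iLuc, 25.6, 29.2 and 30.6 CPM in WT-EF and 10.9, 23.2 and 14.9 CPM in iEF. Its WT-EF libraries lay below every iLuc library (log2 fold change -0.89 ± 0.26, adjusted p-value 0.0211), a call lost without WT-EF replicate 1 (-0.87, adjusted p-value 0.0839), WT-EF replicate 2 (-0.76, adjusted p-value 0.117) or iLuc replicate 1 (-0.63, adjusted p-value 0.178). GSTM4, a glutathione transferase, was at 28, 37.9 and 34.4 CPM in WT-EF against 105, 63.6 and 66.7 CPM in iLuc (-1.25 ± 0.24, adjusted p-value 0.00078). CAV1, the coat protein of caveolae, was at 1447, 1109 and 1393 CPM against 2016, 2209 and 1903 CPM (-0.63 ± 0.13, adjusted p-value 0.00142). LIPI, a phospholipase, had risen from 5.76, 8.10 and 7.70 CPM in iEF to 93.9, 125 and 107 CPM in WT-EF, still below the 143, 260.3 and 186 CPM of iLuc (-0.83 ± 0.18, adjusted p-value 0.00187). RBM11, an RNA-binding protein on the other side of the LIPI element, differed from iLuc as well (-0.86 ± 0.15, adjusted p-value 0.000436).

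The widest gaps among activated targets were in genes with no such run in the window. SYNPR, a synaptic vesicle protein (ENSG00000163630, chromosome 3, 63213991 to 63602600), reached 2.33, 4.50 and 3.32 CPM in WT-EF, where iLuc had 51.9, 41.7 and 45.6 CPM and iEF 0.607, 0.970 and 0.676 CPM. That was 14.6-fold below iLuc (-3.87 ± 0.28, adjusted p-value 4.57e-09) and yet above iEF by a log2 fold change of 2.16. PPP1R1A, an inhibitor of protein phosphatase 1, showed 4.64, 6.00 and 4.62 CPM in WT-EF and 55.8, 30.5 and 36.8 CPM in iLuc (-3.06 ± 0.31, adjusted p-value 4.97e-07). PAX7, a transcription factor of muscle and neural crest precursors, had 13.4, 13.7 and 10.1 CPM against 83.6, 51.6 and 59.9 CPM (-2.39 ± 0.26, adjusted p-value 1.17e-06). Smaller shortfalls were seen for GLI1, the hedgehog pathway factor (-2.00), LOXHD1 (-1.97), NPY1R, a neuropeptide Y receptor (-1.66), NKX2-2, a homeobox repressor (-1.29), FCGRT, the neonatal Fc receptor (-1.25), IL1RAP, a coreceptor for interleukin 1 (-1.17), and PRKCB, a protein kinase C (-0.93), with adjusted p-values from 1.55e-06 for IL1RAP to 0.00100 for PRKCB.

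No difference from iLuc passed the test for 7 activated targets. CCND1, cyclin D1, was at 2223, 2117 and 1808 CPM in WT-EF and 1929, 2133 and 1825 CPM in iLuc, and the groups overlapped (log2 difference 0.06, 95% interval -0.18 to 0.29). The interval was -0.07 to 0.41 for HOXD13, a homeobox factor, -0.40 to 0.08 for the kinase VRK1, -0.45 to 0.07 for EZH2, the methyltransferase of Polycomb complex PRC2, and -0.56 to 0.15 for SOX2. For these 5 the intervals left out a shortfall of 1 log2 unit. STEAP1, a surface metalloreductase, lay below iLuc in every library, with an interval of -0.70 to -0.04 but an adjusted p-value of 0.122, and CCK, a peptide hormone, had an interval of -1.66 to 0.01. The other genes called lower were BCL11B (-0.64, adjusted p-value 0.0288) and KCNN1 (-0.65, 0.0497), both near the threshold. BCL11B was not called without any 1 WT-EF replicate or iLuc replicate 1 or 2 (adjusted p-values 0.059 to 0.14), and KCNN1 not without any 1 WT-EF replicate, iLuc replicate 1 or 3 or iEF replicate 3 (0.0519 to 0.309).

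GGAA runs near the gene start were counted over all protein-coding genes as a description. Such a run, on either strand, lay in the window of 404 of 16417 tested genes (2.46%). The share was 3.56% (75 of 2106, 95% Wilson interval 2.85 to 4.44) among genes lower in WT-EF than in iLuc and 2.46% (60 of 2438) among genes higher in WT-EF. Among all genes higher in iLuc than in iEF it was 3.33% (135 of 4056, 2.82 to 3.93), close to that of the genes lower in WT-EF. Among the 279 protein-coding genes with WT-EF between iEF and a higher iLuc it was 6.81% (19 genes, 4.40 to 10.4). A run in this window is not evidence of binding, and more distant elements were not counted.

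**Figure D3:**
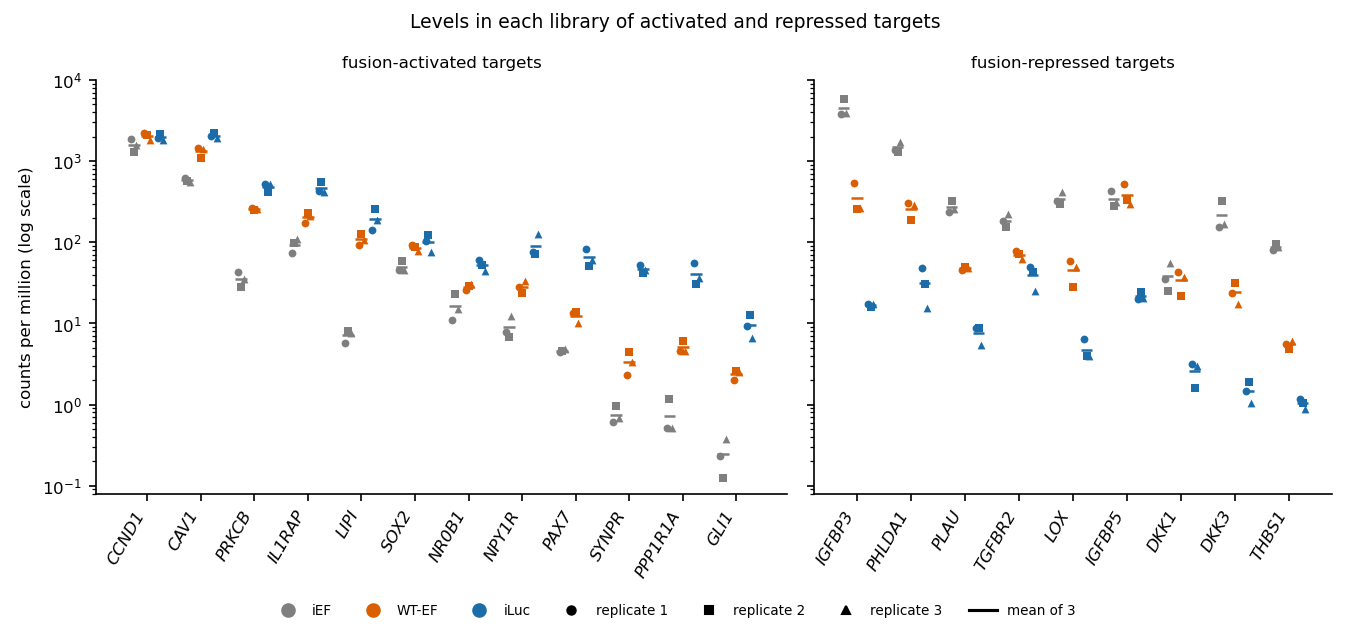
Levels in CPM (y axis, log scale) of 12 activated and 9 repressed targets (x axis) in each library of iEF, WT-EF and iLuc, with 1 symbol per replicate and a bar at the mean of 3. WT-EF lies between iEF and iLuc for most genes, overlaps iLuc for CCND1 and SOX2, and overlaps iEF for IGFBP5 and DKK1.

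Repressed targets stayed above the iLuc level. All 14 genes of the list were higher in WT-EF than in iLuc, against 9.78% of all genes, with a median log2 difference of 2.53. Compared with iEF, 10 of the 14 were lower in WT-EF, with a median of -2.09, and the distance between iLuc and iEF had a median of -4.55. These genes were listed because EWS/FLI is known to repress them, some from these libraries. All 14 calls were made again without any 1 of the 9 libraries.

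IGFBP3, a binding protein that restrains insulin-like growth factors (ENSG00000146674, chromosome 7, 45951844 to 45961473), had 17.5, 15.9 and 17.3 CPM in iLuc, 532, 259 and 267 CPM in WT-EF and 3771, 5873 and 3974 CPM in iEF. The WT-EF libraries thus lay far below iEF (-3.73 on the log2 scale) and 20.4-fold above iLuc (4.35 ± 0.27, adjusted p-value 4.53e-10). LOX, the enzyme that crosslinks collagen and elastin, stood at 58.3, 28.4 and 49.5 CPM in WT-EF and 6.37, 3.98 and 3.96 CPM in iLuc (3.23 ± 0.29, adjusted p-value 8.4e-08). DKK3, of the Dickkopf family, had 23.5, 31.3 and 17.6 CPM against 1.49, 1.90 and 1.05 CPM (4.01 ± 0.24). In these 3 genes every WT-EF library was above every iLuc library and below every iEF library. The same order was called for PHLDA1 (3.01 against iLuc), PLAU, the urokinase plasminogen activator (2.64), THBS1, thrombospondin 1 (2.41), CDKN1A, the cell cycle inhibitor p21 (1.70), TGFBR2, the type II TGF-beta receptor (0.85), and CCN2, a matricellular growth factor (0.85). For CCN2, whose WT-EF and iLuc libraries overlapped, this order was not called without WT-EF replicate 3 or iLuc replicate 3.

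For 4 repressed targets no difference between WT-EF and iEF passed the test. IGFBP5, a second binding protein of this family (ENSG00000115461, chromosome 2, 217536828 to 217560272), had 527, 329 and 299 CPM in WT-EF and 424, 278 and 315 CPM in iEF, where iLuc had 19.9, 24.2 and 20.6 CPM. The WT-EF and iEF libraries overlapped, at a log2 difference of 0.16 ± 0.23, and both lay far above iLuc (4.14 ± 0.26, adjusted p-value 8.42e-10). DKK1, a secreted Wnt antagonist, was likewise at 43.6, 22 and 37.2 CPM in WT-EF, 35, 25.2 and 55.3 CPM in iEF and 3.13, 1.61 and 3.03 CPM in iLuc (3.72 ± 0.31, adjusted p-value 2.81e-08). The other 2 were SPRY1, a feedback inhibitor of receptor tyrosine kinase signaling (1.67 against iLuc, 0.34 against iEF), and FOXO1 (1.00 and -0.37).

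Most matrix genes stayed above the iLuc level. Of 33 collagens and matrix genes, 25 (75.8%, against 9.78% of all genes) were higher in WT-EF than in iLuc and 1 lower, with a median log2 difference of 1.43, and 24 were lower than in iEF (median -1.42). COL11A1, a fibrillar collagen chain, had 0.796, 0.553 and 0.626 CPM in iLuc and 24.1, 16.9 and 44.7 CPM in WT-EF (5.39 ± 0.46, adjusted p-value 5.29e-08), and its iEF libraries, at 14.9, 26.5 and 11.2 CPM, overlapped those of WT-EF. POSTN, the matrix protein periostin, had 26.9, 15.7 and 79.9 CPM in WT-EF against 1.16, 1.30 and 1.33 CPM in iLuc and 16.3, 21.7 and 30.1 CPM in iEF. LOXL2, a lysyl oxidase, was instead partly reduced, at 31.3, 31.1 and 24 CPM against 131, 225 and 138 CPM in iEF and 2.11, 1.97 and 1.88 CPM in iLuc (3.86 ± 0.21 over iLuc, adjusted p-value 8.8e-11). Other genes of the list had returned near iLuc: the 95% interval of the log2 difference was -0.06 to 0.64 for COL4A2, a basement membrane collagen, and -0.14 to 0.73 for COL12A1. COL13A1 was the 1 member called lower (-0.66, adjusted p-value 0.0188), and this call was lost without WT-EF replicate 1 or 2 or iLuc replicate 1 or 2, with adjusted p-values of 0.0596 to 0.157.

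Adhesion genes showed the highest share of higher calls after the repressed targets, 21 of 26 (80.8%), with 1 lower, a median log2 difference of 0.95 and 17 in the order iLuc, WT-EF, iEF. CD44, the hyaluronan receptor (ENSG00000026508, chromosome 11, 35160429 to 35253949), stood at 10.7, 5.28 and 15.5 CPM in iLuc, 411, 161 and 299.9 CPM in WT-EF and 1495, 1083 and 1668 CPM in iEF. It was 27.5-fold above iLuc in WT-EF (4.78 ± 0.28, adjusted p-value 2.54e-10). ITGA3, the laminin-binding integrin alpha 3 chain, had 47.1, 24.9 and 37.6 CPM against 3.70, 3.89 and 3.08 CPM (3.35 ± 0.20, adjusted p-value 3.57e-10), and ITGB8 differed by 1.99 ± 0.29. ITGB1, the beta chain shared by most integrins, was by contrast back near iLuc, with 582, 540.3 and 594 CPM against 454, 594 and 447 CPM (95% interval -0.04 to 0.45). CAV2, which forms caveolae with CAV1, was the member called lower (-0.84 against iLuc, 1.29 against iEF).

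Among 22 matrix proteases and inhibitors, 12 (54.5%) were higher and 2 (9.09%) lower in WT-EF than in iLuc (median 1.28). Of all genes 8.52% were lower, and of protein-coding genes 12.8%. All but 1 of the 22 were lower than in iEF (median -2.31). MMP2, a gelatinase, had 90.7, 121 and 89 CPM in WT-EF and 12.1, 16.8 and 11.9 CPM in iLuc (2.88 ± 0.22, adjusted p-value 8.91e-09), and PLAT, the tissue plasminogen activator, had 52.3, 33.3 and 52.5 CPM against 10.4, 9.28 and 7.72 CPM (2.33 ± 0.33, adjusted p-value 3.17e-05). MMP10 and TIMP1 overlapped iLuc, with 95% intervals of -0.93 to 0.95 and -0.22 to 0.61. The 2 lower genes were TIMP3 (-1.56) and ADAMTS1 (-0.62), and ADAMTS1 was not called without any 1 WT-EF replicate or without iLuc replicate 1 or 2 (adjusted p-values 0.0666 to 0.238).

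In lists tied to the cytoskeleton, to YAP and to TGF-beta more genes were higher than lower. Of 22 contractile genes and targets of serum response factor, 11 (50.0%) were higher in WT-EF than in iLuc and none lower (median 0.45), and without iLuc replicate 3 or iEF replicate 2 there was 1 lower. TPM1, a tropomyosin, had 122, 77.4 and 125 CPM in WT-EF and 22.2, 19.8 and 22.7 CPM in iLuc (2.31 ± 0.24), and FHL2, a LIM-domain cofactor, differed by 2.07 ± 0.18. Of 20 YAP and TEAD targets, 9 (45.0%) were higher and 1 lower (median 0.63). AXL, a receptor tyrosine kinase, had 25.3, 14.7 and 26 CPM against 4.11, 3.14 and 2.76 CPM (2.68 ± 0.29, adjusted p-value 8.84e-07). NT5E, the surface enzyme CD73, differed by 3.25 ± 0.19 and ANKRD1 by 2.77 ± 0.36, and the lower gene was YAP1 itself (-0.45). Without iLuc replicate 3 there were 2 lower. In the TGF-beta pathway 12 of 25 genes (48.0%) were higher (median 0.52), among them the receptor TGFBR1 (35.5, 29.1 and 29 CPM against 7.91, 7.78 and 8.97 CPM, 1.92 ± 0.13). The 2 lower ones, ID2 (-0.93) and SMAD2 (-0.29), were both lost without WT-EF replicate 1 or iLuc replicate 2 (adjusted p-values 0.069 to 0.0815 for ID2). SMAD2 was also lost without WT-EF replicate 2 or 3 or iLuc replicate 1. The ligand TGFB2 and the receptor ACVR1 overlapped iLuc, with 95% intervals of -0.66 to 1.22 and -0.51 to 0.24.

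Most inflammatory and interferon-stimulated genes were lower than in iEF, and part of them were above iLuc. Of 29 cytokines, chemokines and their regulators, 27 were lower in WT-EF than in iEF (median -4.16), and 14 (48.3%, against 9.78% of all genes) were higher than in iLuc (median 2.27), with none lower and 15 not called. Of the 29 genes, 27 were lower in iLuc than in iEF, and of all 6833 genes with that difference 2490 were higher in WT-EF than in iLuc. TNFSF15, a TNF family cytokine, had 145, 161 and 335 CPM in iEF, 8.14, 9.89 and 11 CPM in WT-EF and 0.437, 0.685 and 0.676 CPM in iLuc (4.06 ± 0.41 over iLuc, adjusted p-value 4.25e-07). TNFAIP3, an inhibitor of NF-kappaB signaling, stood at 34.7, 30.7 and 32 CPM in WT-EF and 2.83, 4.13 and 6.24 CPM in iLuc (2.98 ± 0.40), and CSF1, the macrophage growth factor, differed by 2.96 ± 0.26. In these genes the 3 groups did not overlap. PTGS2, the prostaglandin synthase COX-2, was in contrast back at 40.3, 39 and 36.7 CPM from 455, 556 and 1121 CPM, overlapping the 41.4, 46.7 and 14 CPM of iLuc (95% interval -0.67 to 1.00), and the interval for NFKBIA was -0.42 to 0.77.

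Of 36 interferon-stimulated and antigen presentation genes, 24 (66.7%) were higher in WT-EF than in iLuc, none was lower and 12 were not called (median 1.12), while 35 were lower than in iEF (median -2.14). In 19 the order iLuc, WT-EF, iEF passed its test. IFI6 had 34, 65.4 and 32.2 CPM against 7.45, 7.45 and 5.39 CPM in iLuc (2.67 ± 0.37, adjusted p-value 2.33e-05). IFIT1, which binds viral RNA, had 27, 50.8 and 27.9 CPM against 8.30, 7.14 and 4.11 CPM (2.41 ± 0.35, adjusted p-value 3.74e-05), and IFIT3 differed by 1.82 ± 0.24. STAT2, which carries the interferon signal to the nucleus, and TAP2, a peptide transporter, were near iLuc, with 95% intervals of -0.14 to 0.57 and -0.18 to 0.52.

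Neuronal genes did not move as one. Of 29 neuronal and neuroendocrine genes, 9 (31.0%) were higher and 5 (17.2%) lower in WT-EF than in iLuc (3 lower without iLuc replicate 2), with a median of 0.01. Of protein-coding genes 14.9% were higher and 12.8% lower. PCSK1, a convertase that cuts prohormones (ENSG00000175426, chromosome 5, 95726037 to 95769847), was at 154, 65.6 and 79.1 CPM in WT-EF, 31.1, 15.1 and 24.7 CPM in iEF and 2.26, 1.46 and 2.00 CPM in iLuc. It was 49.8-fold above iLuc (5.64 ± 0.33, adjusted p-value 2.73e-10). The related convertase PCSK2, in contrast, had gone from 5.06, 6.91 and 8.16 CPM in iEF to 86, 124 and 109.8 CPM, overlapping the 88.9, 135 and 141 CPM of iLuc (95% interval -0.51 to 0.14), as had the peptide NPY (-0.80 to 0.44). NEFM, a neurofilament chain, was higher (2.47 ± 0.32) and SYNPR, CPE, a carboxypeptidase that trims prohormones (-1.22 ± 0.16), and ENO2, the neuronal enolase (-1.19 ± 0.17), were lower.

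Of 25 neural and homeobox transcription factors, 18 were higher in WT-EF than in iEF, and 9 (36.0%) were lower and 4 (16.0%) higher than in iLuc (median -0.19). The higher ones numbered 2 without WT-EF replicate 1 or 2 or iLuc replicate 1, and their share was close to the 14.9% of protein-coding genes. OTX2, a homeobox factor of the forebrain, had 58.1, 73.8 and 61.6 CPM in WT-EF against 222, 199 and 158 CPM in iLuc and 11.9, 17.3 and 15.8 CPM in iEF (-1.59 ± 0.18 against iLuc, adjusted p-value 1.3e-06). HOXD9 and HOXD13 overlapped iLuc, with 95% intervals of -0.57 to 0.18 and -0.07 to 0.41. SOX11 was higher than in iLuc (0.86 ± 0.19) and not called against iEF (-0.24, adjusted p-value 0.386).

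Axon guidance genes were higher in 13 of 30 cases (43.3%) and lower in 2 (median 0.56). NRP1, a receptor for semaphorins and VEGF, had 112, 75.8 and 103 CPM against 18.8, 27.8 and 25.2 CPM (1.98 ± 0.20, adjusted p-value 5.37e-07), and SEMA3A, a repulsive cue, differed by 1.75 ± 0.21. SEMA3D (-1.43 ± 0.17) and SEMA6A (-1.06 ± 0.21) were the 2 lower genes, which became 4 without iLuc replicate 3 or iEF replicate 1. DCC, a netrin receptor, was near iLuc with 91.4, 127 and 90.1 CPM against 127, 153 and 88.4 CPM (95% interval -0.50 to 0.01), where iEF had 19.3, 20.0 and 14.4 CPM. Of 24 potassium channel genes, 6 were higher and 6 lower, 25% each (median 0.37). KCNMA1, the large-conductance calcium-activated channel, had 12.3, 7.11 and 8.35 CPM against 1.93, 1.99 and 2.88 CPM (2.02 ± 0.26) and the subunit KCNAB3 2.23, 4.43 and 2.11 CPM against 8.06, 6.87 and 10.8 CPM (-1.56 ± 0.26). KCNH5 had risen from 0.653, 1.47 and 1.13 CPM to 23.3, 24.3 and 17.2 CPM, with an interval of -0.14 to 0.88 against iLuc.

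Some genes lay outside the range between the depleted and the control cells. GAP43, a growth cone protein (ENSG00000172020, chromosome 3, 115342357 to 115440337), stood at 201, 165 and 172 CPM in WT-EF, 36.5, 28.1 and 20.2 CPM in iEF and 19.5, 5.75 and 8.84 CPM in iLuc, so that every WT-EF library was above all others (log2 differences 4.04 ± 0.28 from iLuc and 2.69 ± 0.26 from iEF, adjusted p-value of the order 5.17e-06). DACT2, which acts on Dishevelled in Wnt signaling, had 38.1, 38.2 and 41.1 CPM in WT-EF, 2.66, 1.78 and 6.08 CPM in iEF and 2.59, 2.98 and 3.81 CPM in iLuc, with no difference called between iLuc and iEF (-0.09, order 5.03e-06). A2M, a plasma protease inhibitor, was at 17.5, 45.2 and 28.9 CPM against 0.437, 0.751 and 0.501 CPM in iLuc (5.71 ± 0.37) and 2.82, 10.5 and 7.24 CPM in iEF. Higher than in both groups were also PCSK1 (2.03 over iEF), the growth factor PDGFD (1.95 over iLuc and 3.98 over iEF), TFEC, a factor of the MITF family (1.89 and 3.34), SOX8 (1.74 and 1.74) and the channel subunit KCNMB4 (1.40 and 1.93).

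Below both groups was VEGFA, the angiogenic growth factor (ENSG00000112715, chromosome 6, 43737921 to 43754224), with 51, 54.8 and 55.4 CPM in WT-EF, 167, 179 and 229.8 CPM in iEF and 218, 229 and 127 CPM in iLuc. The WT-EF libraries lay under all others (log2 differences -1.82 ± 0.17 from iLuc and -1.84 ± 0.17 from iEF, adjusted p-value of the order 4.92e-06), and no difference was called between iLuc and iEF (-0.02, adjusted p-value 0.943). GDNF, a neurotrophic factor, had 1.27, 1.35 and 1.94 CPM in WT-EF, 13, 9.86 and 14.8 CPM in iEF and 7.24, 9.26 and 7.97 CPM in iLuc (-2.45 ± 0.22 from iLuc). WNT5A, a ligand of noncanonical Wnt signaling, had 14, 12.7 and 12.3 CPM in WT-EF against 37.9, 36.5 and 37.6 CPM in iLuc (-1.53 ± 0.21). LAMA3, a laminin chain (-1.74 from iLuc and -2.56 from iEF), and TNFSF13B, the B-cell cytokine BAFF (-3.47 and -2.60), were also called. G0S2 (-2.22 and -2.14) and HOXB9 (-2.20 and -1.99) met the same test, but not without any 1 WT-EF replicate, and in iLuc replicate 3 they stood at 17.6 and 5.21 CPM against 87.9 and 25.5 CPM in iLuc replicate 1.

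**Figure D4:**
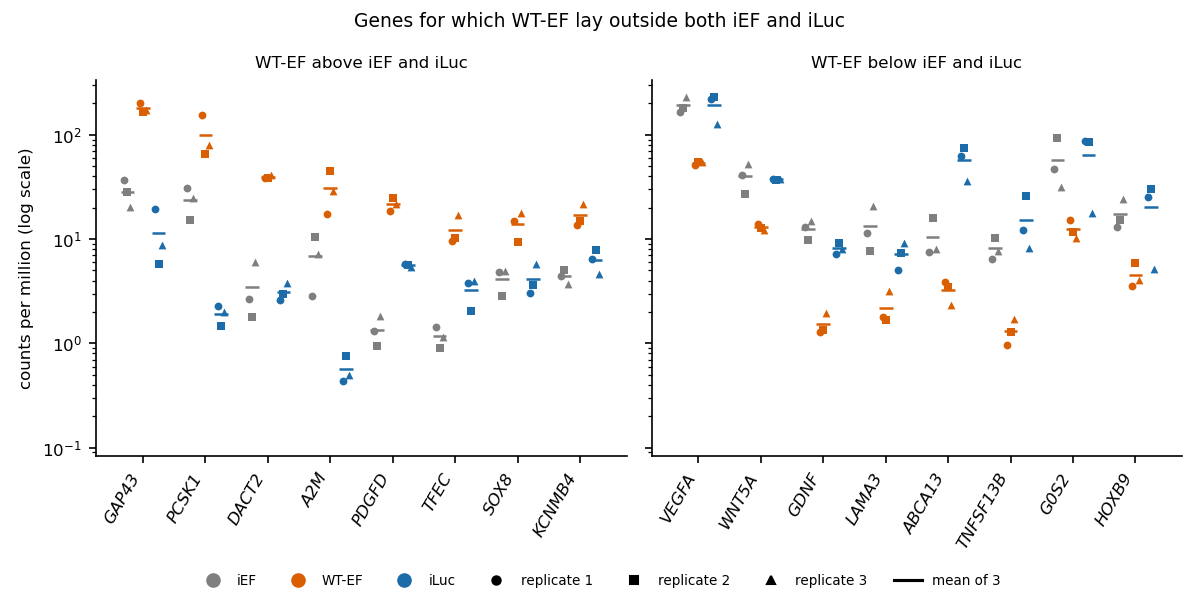
Levels in CPM (y axis, log scale) of 8 genes called higher and 8 called lower in WT-EF than in both iEF and iLuc (x axis), with 1 symbol per library and a bar at the mean of 3. WT-EF lies outside the other 6 libraries except for HOXB9, where iLuc replicate 3 is at 5.21 CPM, and VEGFA is at 51.0 to 55.4 CPM in WT-EF and at 127 CPM or more in the others.

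Genes were also ranked by size, among protein-coding genes that averaged at least 5 CPM and moved one way in each of the 3 sets. The largest increase over iLuc was in PMP22, a myelin membrane protein (ENSG00000109099, chromosome 17, 15133090 to 15175609). It had 0.565, 0.685 and 0.601 CPM in iLuc, 63.1, 47.4 and 52.4 CPM in WT-EF and 162, 306 and 138 CPM in iEF, 88.6-fold above iLuc (6.47 ± 0.30, adjusted p-value 9.67e-12). SH3TC2, a gene of myelinating Schwann cells (5.81 ± 0.23), the secreted growth factor PTN (5.74 ± 0.41), the calcium-binding protein S100A16 (5.67 ± 0.22) and the cadherin CDH13 (5.36 ± 0.26) followed, together with A2M, PCSK1 and COL11A1. Next came CRYAB, a small heat shock protein (5.21 ± 0.47), TDO2, which breaks down tryptophan (5.00 ± 0.50), ISLR (5.27 ± 0.38) and MICAL2, which oxidizes actin (4.93 ± 0.24). All 12 were lower in iLuc than in iEF, with log2 differences from -8.32 for PMP22 to -3.51 for A2M. Their sizes depended on the input: on ComBat values, with a pseudocount, the log2 difference from iLuc was 2.44 for SH3TC2, 2.95 for PTN, 2.83 for ISLR, 2.24 for MICAL2, 3.04 for CRYAB and 3.91 for PCSK1, all still called. PMP22, A2M, S100A16, CDH13, COL11A1 and TDO2 had no result on ComBat values. Of the 24 genes ranked in either direction, 14 had one, and for 11 of them the fold difference was smaller by over 1.5 times.

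The largest decrease under the same limits was in C7, a component of the terminal complement complex (ENSG00000112936, chromosome 5, 40909594 to 41020318). C7 had 14.4, 34.5 and 21.6 CPM in iLuc, 0.0240, 0.218 and 0.344 CPM in WT-EF and 0.140, 0.0939 and 0.216 CPM in iEF (-6.89 ± 0.37 against iLuc, adjusted p-value 7.77e-11), and WT-EF was not called against iEF (0.28, adjusted p-value 0.746). The neighboring complement gene C6, on the same chromosome at 41142218 to 41261540, had 15, 35.2 and 10.2 CPM in iLuc and 0.360, 0.701 and 0.393 CPM in WT-EF (-5.28 ± 0.35), with at most 2 counts in any iEF library. WT-EF was called above iEF for C6. As for C7, no return was called for GPR160, an orphan receptor. GPR160 was at 1.90, 1.67 and 2.01 CPM in WT-EF against 29.8, 16 and 23 CPM in iLuc and 1.40, 1.60 and 2.11 CPM in iEF (-3.61 ± 0.24 against iLuc, 0.13 against iEF). PADI2, which converts arginine to citrulline (-3.42 ± 0.23), the nuclear pore protein NUP210 (-3.47 ± 0.35), TTLL6, a tubulin-modifying enzyme (-4.03 ± 0.34), CLUL1 (-3.88 ± 0.26), FGF12 (-3.65 ± 0.50) and ABCA13, a transporter (-4.13 ± 0.21), completed the group with SYNPR, TNFSF13B and PCK2. TRIB3, at -3.79, was not ranked, since its direction differed between replicate sets. Without WT-EF replicate 3 the difference for C7 was -7.52, and that for FGF12 was -2.69 without iLuc replicate 2 and -4.28 without iLuc replicate 3. ABCA13, TNFSF13B and PCK2 were lower than in iEF as well.

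For the serine synthesis and amino acid response genes, which are driven by the factor ATF4, the gap between WT-EF and iLuc depended on the replicate set. Of 25 genes, 21 (84.0%, against 8.52% of all genes) were lower in WT-EF than in iLuc and none higher (median -1.52), and 11 were lower than in iEF as well (median -0.68). TRIB3, a pseudokinase induced by ATF4, had 178, 179 and 7.52 CPM in iLuc replicates 1 to 3 and 8.58, 7.96 and 9.80 CPM in WT-EF. ASNS, asparagine synthetase, had 393, 464 and 46.1 CPM and 41.4, 50.7 and 56 CPM, and PCK2, which is not on the list, the mitochondrial form of phosphoenolpyruvate carboxykinase, had 65.6, 67.5 and 3.28 CPM and 2.02, 4.09 and 2.11 CPM. In each of these genes iLuc replicate 3 stood at the WT-EF level, and the groups overlapped. Within replicate sets the median log2 ratio of WT-EF over iLuc, with 0.5 CPM added to both, was -1.96 in set 1, -1.90 in set 2 and 0.22 in set 3, and the number of the 25 genes that were lower in WT-EF was 25, 25 and 7. Without iLuc replicate 3, 22 genes were called lower, and without iLuc replicate 1, 12 were.

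The fitted differences were -3.79 ± 0.70 for TRIB3 (adjusted p-value 0.00056), -2.65 ± 0.51 for ASNS (0.00078) and -4.02 ± 0.63 for PCK2 (9.28e-05). Without iLuc replicate 3 they were -4.48, -3.27 and -4.68, and without iLuc replicate 1 they were -3.29, -2.04 and -3.29. For some genes the gap was present in all 3 sets. SLC1A4, a transporter of neutral amino acids, had 147, 144 and 153 CPM in iLuc, 37.4, 31 and 40.9 CPM in WT-EF and 56.4, 64 and 84.4 CPM in iEF (-2.02 ± 0.15 against iLuc, adjusted p-value 5e-09). It lay below both groups. PSAT1, an enzyme of serine synthesis, had 609, 545 and 152 CPM in iLuc and 99.4, 117 and 116 CPM in WT-EF (-1.98 ± 0.37), narrower in set 3 than in the others. SLC1A4 and PSAT1 were singled out after their values were seen. ATF3, another gene of this response, showed no difference past the threshold (-0.12, 95% interval -0.89 to 0.65).

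Cholesterol and fatty acid synthesis followed a like split. Of 26 genes, 7 (26.9%) were lower in WT-EF than in iLuc and none higher (median -0.38), with 12 lower without iLuc replicate 3 and 4 without iLuc replicate 1 or without WT-EF replicate 1 or 3. The median ratio by set was -0.66, -0.42 and 0.05. FADS1, a fatty acid desaturase (-1.20 ± 0.24), DHCR7, which makes cholesterol in its last step (23.2, 30.8 and 24 CPM against 58.4, 69.8 and 44.3 CPM, -1.14 ± 0.19), and the regulator SREBF1 (-0.97 ± 0.19) were lower, and INSIG1 overlapped iLuc (95% interval -0.61 to 0.43).

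DNA replication genes met no threshold when all 3 sets were used: none of 28 was called in either direction, with a median of 0.00. The sets lay on opposite sides of that value: the median ratio of WT-EF over iLuc was 0.25 in set 1, 0.39 in set 2 and -0.53 in set 3, where all 28 genes were lower in WT-EF. PCNA, the sliding clamp, had 202, 199 and 469 CPM in iLuc and 227, 223 and 202 CPM in WT-EF, and the helicase subunit MCM4 had 252, 216 and 609 CPM and 374, 377 and 355 CPM. Both were chosen as examples after their values were seen, and in both iLuc replicate 3 was the highest of the 9 libraries. Without that library 13 of the 28 genes were called higher in WT-EF, and without iLuc replicate 2 there were 2 called lower (1 without iLuc replicate 1 or iEF replicate 3). Against iEF 15 were higher in WT-EF (median 0.49).

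**Figure D5:**
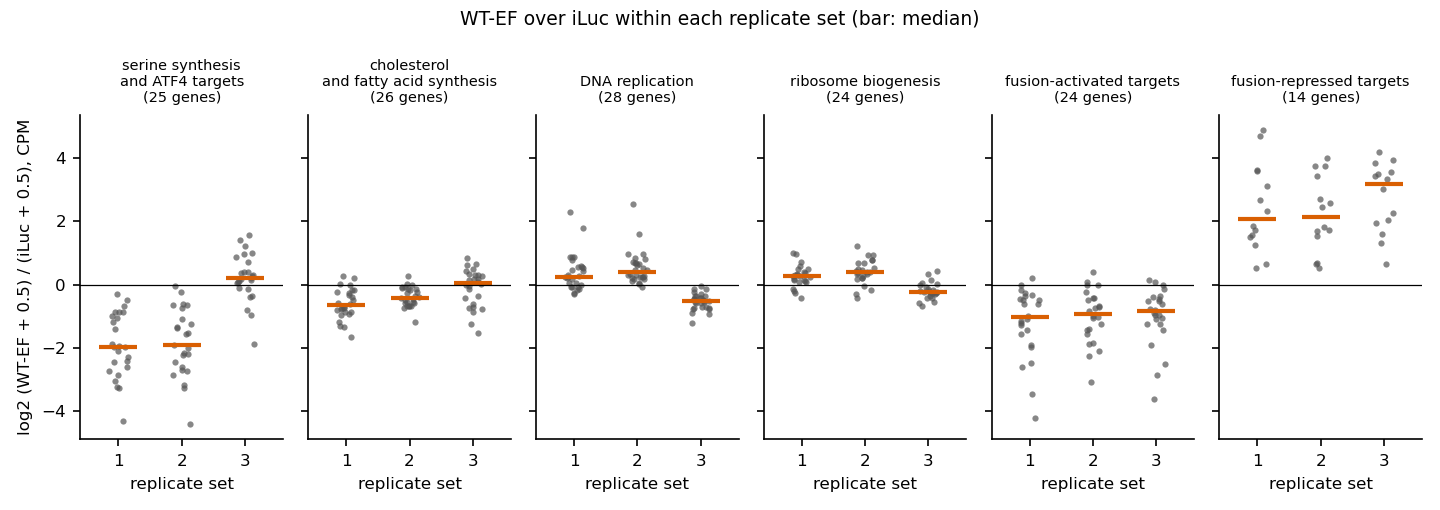
Log2 ratio of WT-EF over iLuc, each with 0.5 CPM added (y axis), for the tested genes of 6 lists in replicate sets 1, 2 and 3 (x axis), with 1 point per gene and a bar at the median. The serine synthesis and ATF4 list has medians of -1.96, -1.90 and 0.22 and DNA replication has 0.25, 0.39 and -0.53, while repressed targets are above 0 in every set.

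Ribosome biogenesis genes shifted with the same library. Of 24 genes, 3 (12.5%) were higher and 1 lower in WT-EF than in iLuc (median 0.13). In all 16.7% were called, against 18.3% of all genes and 27.7% of protein-coding genes. There were 8 higher without iLuc replicate 3, and the median ratio by set was 0.26, 0.40 and -0.24. RRS1 (0.79 ± 0.16) and POLR1A, the largest subunit of RNA polymerase I (0.52 ± 0.11), were higher and NPM1, nucleophosmin, was lower (-0.45 ± 0.11). Of 28 mitosis genes none was higher and 2 (7.14%) were lower (median -0.15), against 8.52% of all genes and 12.8% of protein-coding genes. Those 2, CCNA2 (-0.48) and NUF2 (-0.58), were both lost without any 1 WT-EF replicate or iLuc replicate 1, and there were 1 lower without iLuc replicate 2 or 3 and 5 without iEF replicate 3. A single mitosis gene was called higher without iLuc replicate 3 or iEF replicate 3. Of 18 genes of G1 cyclins and CDK inhibitors, 2 (11.1%) were higher, CDKN1A and CDK6 (0.67), and 3 (16.7%) were lower (1 without WT-EF replicate 1 or iLuc replicate 1 and 5 without iLuc replicate 3). In all 27.8% were called, close to the 27.7% of protein-coding genes. CDK6 was not called without any 1 WT-EF replicate or iLuc replicate 3 (adjusted p-values 0.0747 to 0.173), and without iLuc replicate 3 there were 4 higher. CDKN1B, the inhibitor p27, was lower in all 3 sets, with 35, 33.9 and 27.2 CPM against 68.1, 75.1 and 40.8 CPM (-0.93 ± 0.17).

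Of 31 chromatin regulators, 1 was higher and 4 were lower (median -0.09), in all 16.1%, against 18.3% of all genes and 27.7% of protein-coding genes. The lower genes included RCOR1, the CoREST corepressor, with 124, 131 and 124 CPM against 328, 248 and 245 CPM (-1.11 ± 0.15, adjusted p-value 2.42e-05), and the deacetylase HDAC1, with 125, 131 and 105 CPM against 201, 195 and 203 CPM (-0.74 ± 0.10), both parts of the CoREST complex. Without WT-EF replicate 2 or 3 or iLuc replicate 2 there were 2 lower, and without iLuc replicate 3 there were 3 higher (2 without iLuc replicate 1). The 95% interval was -0.51 to 0.15 for BCL7A, of the BAF remodeling complex, and -0.60 to -0.09 for CHD3, of the NuRD complex (adjusted p-value 0.0548).

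In the IGF axis 6 of 19 genes (31.6%) were higher in WT-EF than in iLuc and 4 (21.1%) lower (median 0.16). Apart from IGFBP3 and IGFBP5, the ligand IGF1 was higher, at 72.3, 81.9 and 70.6 CPM in WT-EF against 40.1, 32.2 and 25.5 CPM in iLuc and 2.89, 6.63 and 3.94 CPM in iEF (1.19 ± 0.22 over iLuc, adjusted p-value 0.000622). Its libraries were above both groups, an order not called without WT-EF replicate 1 or iLuc replicate 2. The insulin receptor INSR (-0.99 ± 0.13) and PAPPA, a protease that cleaves IGF-binding proteins (-0.93 ± 0.17), were lower, and IRS2, an adaptor of both receptors, was higher than in iEF (1.87) and overlapped iLuc (95% interval -0.27 to 0.59). Of 30 Wnt pathway genes, 6 (20.0%) were higher and 5 (16.7%) lower (median -0.12), against 14.9% and 12.8% of protein-coding genes. The coreceptors ROR1 and ROR2 for WNT5A went opposite ways, with -0.84 ± 0.14 and 0.90 ± 0.20, while the antagonist DKK2 overlapped iLuc at 149, 233 and 163 CPM against 182, 292 and 129 CPM, from 4.53, 5.29 and 9.67 CPM in iEF.

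Among 25 genes of MAPK feedback and immediate early response, 9 (36.0%) were higher and 1 lower (median 0.41), with 3 lower without iLuc replicate 3 and none lower without WT-EF replicate 1 or iLuc replicate 1 or 2. SPRY2 (1.92 ± 0.24) and the AP-1 factor FOSL2 (2.02 ± 0.23) were higher, ETV5, the lower gene, stood at -0.74 (0.0117), and the phosphatase DUSP1 overlapped iLuc (95% interval -0.08 to 0.70). Hypoxia and glycolysis genes were higher in 4 (16.0%) and lower in 7 (28.0%) of 25 cases (median 0.07), against 14.9% and 12.8% of protein-coding genes. Without WT-EF replicate 1 or 3 or iLuc replicate 1 there were 2 to 4 lower, so neither count stood clear of those shares. NDRG1 (1.89 ± 0.20), the peptide adrenomedullin, ADM (1.55 ± 0.28), and PFKFB3, which stimulates glycolysis (1.09 ± 0.19), were higher, and VEGFA, the aldolase ALDOC (-1.78 ± 0.46) and the glucose transporter SLC2A1 (-0.87 ± 0.17) were lower. ALDOC was not called without WT-EF replicate 1 (-1.71, adjusted p-value 0.0533) or iLuc replicate 1 (-0.76, adjusted p-value 0.205). Of 20 chaperones and stress genes of the endoplasmic reticulum, 6 (30.0%) were higher and 1 lower (median 0.33). That count of higher genes was 10 without iLuc replicate 3, 3 without WT-EF replicate 1 or 2, 1 without iLuc replicate 2 and 0 without iLuc replicate 1. HERPUD1, the lower gene, was not called without any 1 WT-EF replicate or iLuc replicate 1 or 2, and there were 2 lower without iLuc replicate 3. XBP1 had an interval of -0.29 to 0.58 against iLuc.

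Exons of 30 of the 189 named genes share over 10% of their bases with exons of other genes in the annotation, among them ASNS, CCK, CDH13, CLUL1, CRYAB, DKK1, DKK3, GDNF, GPR160, IFI6, IGF1, NEFM, NKX2-2, NPY1R, PLAU, PPP1R1A, TAP2, TGFB2 and TPM1. Whether strand was used in counting is not stated, so part of their reads may belong to the overlapping gene.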

How the data were processed

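Total RNA of 21 libraries in 7 groups of 3 was sequenced, and the authors deposited raw counts per Ensembl gene, made with STAR (2.5.1b per the submitters' processing notes) and htseq-count on hg19. The annotation release and the strand setting are not given in the sources used here. The authors also deposited these counts after ComBat adjustment over replicate sets (normalised signal), used here only as an alternative input. Another file holds the authors' own fold changes and p-values and was not used.

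Counts were tested with edgeR 4.0.16 in R 4.3.3 by its quasi-likelihood test, with TMM normalization, over the 30549 of 57820 genes that averaged 1 count or more per library. The model held all 21 libraries, 1 coefficient per group and the replicate number as a block, as the study adjusted for replicate sets. Deviations of same-numbered WT-EF and iLuc libraries from their group means correlated at 0.243, 0.353 and 0.302. Those of WT-EF and iLuc libraries with unlike numbers were negative, in part by construction, since deviations from a group mean cancel. The values were 0.123, 0.459 and 0.314 for WT-EF with iEF and -0.047, 0.242 and 0.135 for iLuc with iEF. Some pairs with unlike numbers were positive there: 0.231 for iLuc replicate 3 with iEF replicate 1 and 0.141 for iLuc replicate 1 with iEF replicate 2. For iEF replicate 1 with WT-EF replicate 3 the value was 0.196, and for iEF replicate 3 with WT-EF replicate 1 it was 0.036. Pairing by number was thus less clear in the comparisons with iEF. P-values were adjusted by Benjamini-Hochberg over all tested genes, with a threshold of 0.05. For an ordering of the 3 groups, the larger of both one-sided p-values was adjusted. Errors of fold changes are SE, and intervals are at 95%. Symbols, coordinates and sequences came from GRCh37 with GENCODE 44 annotation. On simulated counts for WT-EF against iLuc, with 200 changed genes, the fit recovered 61% of 2-fold changes among 30027 genes, with 4.69% of calls false. It recovered 91% of 4-fold changes among 30018 genes, with 6.19% false. The changed genes were not drawn from those with the lowest counts and were far fewer than the calls in the data. No simulated library was made to stand apart, so these shares need not hold for the data.

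Comparisons, gene lists and their members were chosen with earlier results of these data known. Genes were named if they were FLI1 or EWSR1, or members of the activated or repressed lists. Also named were up to 12 protein-coding genes each way with the largest change at a mean of at least 5 CPM and the same direction in all 3 sets, up to 6 each way that lay beyond both groups, and in each list up to 3 called members each way and up to 2 near the iLuc level. DESeq2 1.42.0 and limma 3.58.1 (on log2 ComBat values scaled to equal totals, pseudocount 1) were among the alternatives. The result for 1 gene of the repressed list is not reported here.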

Additional observations from a re-analysis of the deposited data

How the results depend on the processing

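Of 149 named genes called between WT-EF and iLuc, 99 were called under every alternative that tested them, and no gene changed direction with a call. The alternatives were another test (DESeq2), RLE normalization, other low-count filters, the 6 or 9 libraries alone, ComBat values, a 2-fold minimum and leaving out 1 library. Without the replicate block, 4838 genes differed between WT-EF and iLuc (2628 higher and 2210 lower), and 14 of the 149 named genes lost their call, CCN2, TIMP3 and CDK6 among them. IGF1, LIPI and THBS1 were not called on ComBat values, where 8 of 131 lost their call and 38 had a fold difference smaller by over 1.5 times, such as CD44 (2.74 in place of 4.78 on the log2 scale).

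The genes outside the range of iEF and iLuc, 198 in all, were the most dependent on the fit: 337 with DESeq2, 515 with no low-count filter, 85 in the 9 libraries alone and 300 on ComBat values. Genes below iLuc and above iEF, 324 as reported, numbered 576 on ComBat values, 547 with no low-count filter and 199 in the 9 libraries alone, and those in the opposite order, 1197 as reported, numbered 653 on ComBat values. The lower genes numbered 1664 in the 9 libraries alone. A 2-fold minimum left 2918 genes between WT-EF and iLuc (1699 higher and 1219 lower), 891 between and 129 outside both groups, 7909 between iLuc and iEF and 4985 between WT-EF and iEF, by construction. Leaving out 1 library gave 3933 to 6624 called genes, 2277 to 3327 higher and 1616 to 3297 lower, with 999 to 1527 between and 100 to 457 outside both groups. The same step gave 11007 to 12008 genes between iLuc and iEF and 6561 to 7739 between WT-EF and iEF. The cause of these differences was not tested. Higher genes made up 53.4% of the calls as reported, 47.9% with the filterByExpr filter and at most 60.6%, without WT-EF replicate 2. Depth limited low genes: 1 CPM stood for 38.9 to 45.2 counts in these libraries. The Wilson intervals of shares are taken over numbers of genes, as if genes were independent, and do not cover error in read counts.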
